A study of Homo sapiens with 6 samples.

Results

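The 45 genes described here are grouped by name as translation initiation and elongation factors. Of these, 39 have symbols that begin with EIF, for initiation factor, though not all of them act in initiation. The other 6 have symbols that begin with EEF and encode elongation factors or the kinase EEF2K. All 45 were chosen as the rows whose gene symbol equals a listed member, among 24462 different symbols in the count table. Each symbol stood on 1 row. RNA came from U87MG, an established human glioblastoma cell line kept in DMEM with 10% fetal bovine serum. The deprived group was cultured for 24 h in DMEM without serine and glycine, and the complete group for 24 h in equivalent medium with both amino acids. Each group had 3 libraries, named here D1, D2 and D3 (deprived) and C1, C2 and C3 (complete), all from the same line with no other agent stated. Libraries were made with the QuantSeq 3′ kit, which reads transcript ends, so counts do not scale with transcript length. Levels of different genes can be set side by side only where reads are assigned to the right gene. That is uncertain for EIF4A1, EIF3C, EIF5A, EEF1A1 and EEF1G, as described below. In GENCODE v29, exons of another gene on the same strand also cover 41.1% of EIF3L and 17.4% of EIF6 exon bases. For EEF1D, a gene on the opposite strand covers 31.2%. Smaller overlaps exist for other members, and how reads in such overlaps were counted is not given. Levels are TMM-scaled CPM, the share of a library's counts, per 1000000, after a scaling factor that aligns the bulk of the genes between libraries.

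Translation begins when eIF2, bound to GTP and the initiator tRNA, joins the small ribosomal subunit together with eIF1, eIF1A, eIF3 and eIF5. The eIF4 factors bring the mRNA: eIF4E holds the cap, eIF4G is the scaffold, eIF4A unwinds the leader with the help of eIF4B and eIF4H, and eIF5B joins the large subunit. eIF2B reloads eIF2 with GTP, and this step is blocked when eIF2 is phosphorylated, as happens when amino acids run short. eEF1A then delivers each aminoacyl-tRNA, eEF1B reloads eEF1A, and eEF2 moves the ribosome along by a codon.

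Many mRNAs of the translation machinery start with a 5′ terminal oligopyrimidine (TOP) motif, a C at the cap followed by a run of C and T, through which mTORC1 and the RNA-binding protein LARP1 control their translation. Since this feature was not used to choose the genes, it was read from RefSeq gene starts on GRCh38.p14, which gave at least 1 start for 38 of the 45 symbols. A C followed directly by at least 4 pyrimidines was looked for at each annotated start, only on the strand that matches the transcript. Such a run was present for 11 of these 38 genes, or 28.9%. Over all 27305 symbols with a start it was present for 5.14%, and over all 35116 starts for 4.07%. The run was found in 4 of 8 EIF3 genes, 3 of 5 EEF genes, 2 of 7 EIF2 and EIF2B genes, 2 of 11 EIF4 genes and 0 of 7 genes of EIF1, EIF5 and EIF6. When the start was allowed to shift by up to 3 bases, 15 of 38 genes and 16.0% of all symbols held such a run. The 11 starts that hold the run are printed, while 27 of the 38 genes lack it. Each line holds 20 bases, the sixth being the annotated start, and capitals mark the C and the pyrimidines that follow it. In EEF1B2 the run went on past the last base printed.
EIF2A: ggtttCTCTTTCCgggacaa
EIF2S3: ccttcCTCTTTTggcaacat
EIF3D: gtttcCTCTTTTCCTggttt
EIF3F: gcctcCTTCTTTCTCgacaa
EIF3K: accacCTCTTCCTgttcccg
EIF3M: gttccCTTTTCCggtcggcg
EIF4A2: gctgtCTTTTCagtcgggcg
EIF4B: cgggtCTTTTgcgttctctt
EEF1A1: acgttCTTTTTCgcaacggg
EEF1B2: cgggtCCTTTTTCCTCTCTT
EEF2: gcgttCTCTTCCgccgtcgt

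On GRCh38.p14 these windows are chr3:150546782-150546801 (plus strand) for EIF2A, chrX:24054951-24054970 (plus) for EIF2S3, chr22:36529152-36529171 (minus) for EIF3D and chr11:7987332-7987351 (plus) for EIF3F. Those of EIF3K, EIF3M and EIF4A2 are chr19:38619183-38619202, chr11:32583826-32583845 and chr3:186783572-186783591, all on the plus strand. EIF4B lies at chr12:53006451-53006470 (plus), EEF1A1 at chr6:73521018-73521037 (minus), EEF1B2 at chr2:206159890-206159909 (plus) and EEF2 at chr19:3985449-3985468 (minus). A match describes these letters at an annotated start and is not evidence of a used start or of control. The genes EIF2S2, EIF3A, EIF3E, EIF3G, EIF3H, EIF3L and EEF1D had no entry.

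Libraries held 6249706 to 7247995 counts, at which 3 counts are 0.414 to 0.480 CPM, a floor that covers counting error only. Of 7 glial and glioblastoma markers, VIM (5110 to 6914 CPM), CD44 (542 to 862 CPM) and NES (42.2 to 68.0 CPM) were well above the floor. OLIG2 lay at 1.52 to 6.85 CPM and SOX2 reached at most 0.142 CPM. The astrocyte genes GFAP and S100B reached at most 0.891 and 0 CPM. Of 4 epithelial markers, CDH1 and KRT5 were at 0, KRT18 reached 0.569 CPM and EPCAM lay at 0.711 to 1.66 CPM. Libraries did not sort by label. PHGDH, the first enzyme of serine synthesis, stood at 201, 212 and 193 CPM in D1, D3 and C1 and at 64.4, 59.4 and 59.0 CPM in D2, C2 and C3. The first principal component, with 51.4% of the variance, split the libraries the same way, and the columns of D1, C1 and D3 occupy positions 1, 2 and 3 of the deposited table. Whether the labels of D2 and C1 were exchanged was not tested, and every mean, fold change and overlap by label depends on it. Both are called by their labels throughout. The number of members called and the fold changes of some genes are also given without them, which leaves D1 and D3 against C2 and C3. As D2 and C1 were chosen by their values, fits without them are no independent test of the medium. The markers VIM, CD44 and NES moved with the same split, whereas OLIG2 and GFAP did not. VIM had 5110, 5418 and 5441 CPM in D1, D3 and C1 and 6848, 6719 and 6914 CPM in D2, C2 and C3, and CD44 had 542 to 543 CPM in the former and 798 to 862 CPM in the latter. The summed level of 3 neuronal markers was 62.7, 69.2 and 56.6 CPM in D1, D3 and C1 and 74.3 to 74.6 CPM in the other libraries. Of these, SNAP25 split the libraries (25.5 to 31.6 against 38.9 to 42.4 CPM), SYT1 was highest in D3 at 37.3 CPM, and RBFOX3 reached at most 0.446 CPM. The part of these markers in the values below was not tested.

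The comparison of deprived with complete medium asks which transcripts differ when serine and glycine are withheld. Of the 45 factor genes, 43 passed the low count filter and 0 of these were called by edgeR's quasi-likelihood test at a Benjamini-Hochberg adjusted p under 0.05 over 13068 genes, against a background of 0% (0 of 13068). With DESeq2 and with limma-voom the count was also 0. At an unadjusted p under 0.05 there was 1 member, EIF2S3, and over all genes 247, or 1.89%. Log2 fold changes, deprived over complete, ran from -0.21 for EIF4E to 0.22 for EIF1B and EIF2S3, with a median of 0.02 over the 43 members and 0.0033 over all genes tested. They were positive for 24 members and negative for 19. The labelled groups did not overlap in 3 members, or 6.98%, which is the background share of 6.97%. These 3 were EIF2S3 and EIF3D, higher in deprived libraries (background 3.48%), and EIF3G, lower (background 3.49%). Scaling by library totals alone left EIF3D overlapping.

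**Figure D1:**
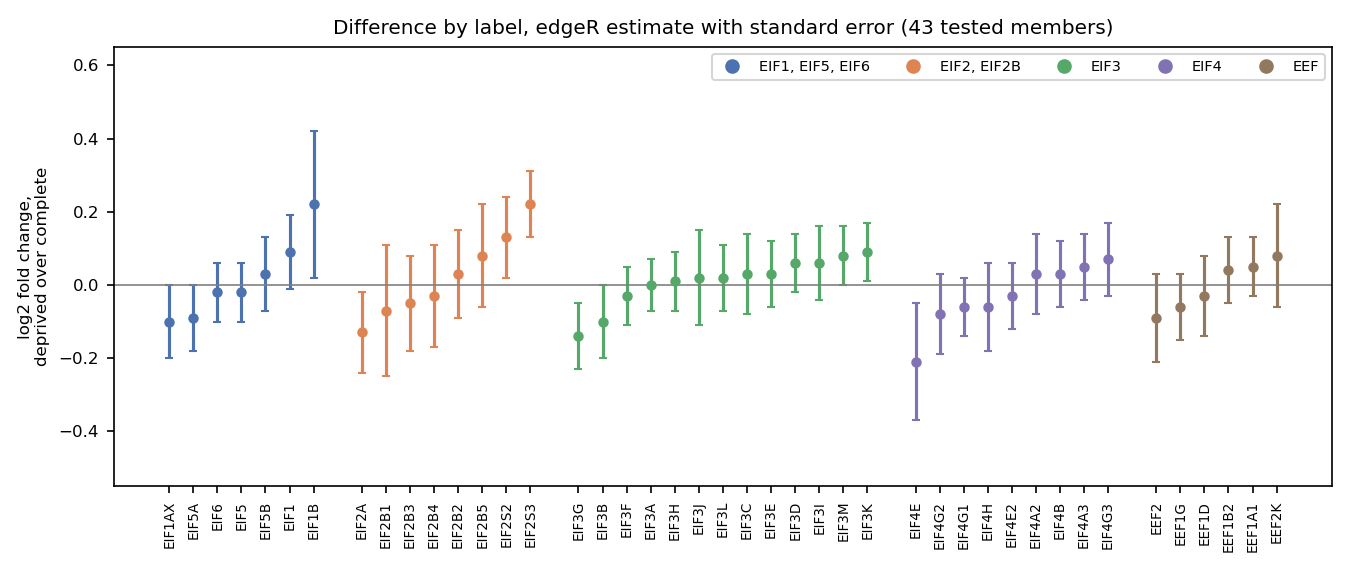
Log2 fold change of the 43 tested factor genes, deprived over complete, on the vertical axis, with edgeR standard errors as bars, ordered within each factor group. Every estimate lies between -0.21 and 0.22.

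The order of libraries within members differed from the labels. The 3 lowest values lay in D1, D3 and C1 for 16 of 43 members, or 37.2%, against 17.7% of all genes tested. The 3 highest values lay there for 7 members, or 16.3%, against 18.3% of all genes. The 7 were EIF1, EIF1B, EIF2S2, EIF3C, EIF4A2, EIF4G3 and EEF2K. Among the EEF genes 4 of 6 had their lowest values in those libraries, among EIF1, EIF5 and EIF6 3 of 7, among EIF2 and EIF2B 3 of 8, among EIF4 3 of 9 tested and among EIF3 3 of 13. These counts describe a set of libraries singled out in the same data, by PHGDH and by a principal component of all tested genes, members included. No test was made of them. Members and all genes tested were also not matched in level, as member means lay at percentiles 42.9 (EIF2B4) to 99.6 (EEF2). Counting error blurs an order of libraries at low counts, and the part of level in these shares was not tested. In bulk RNA, fewer cells of a kind and less of an RNA per cell cannot be told apart.

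**Figure D2:**
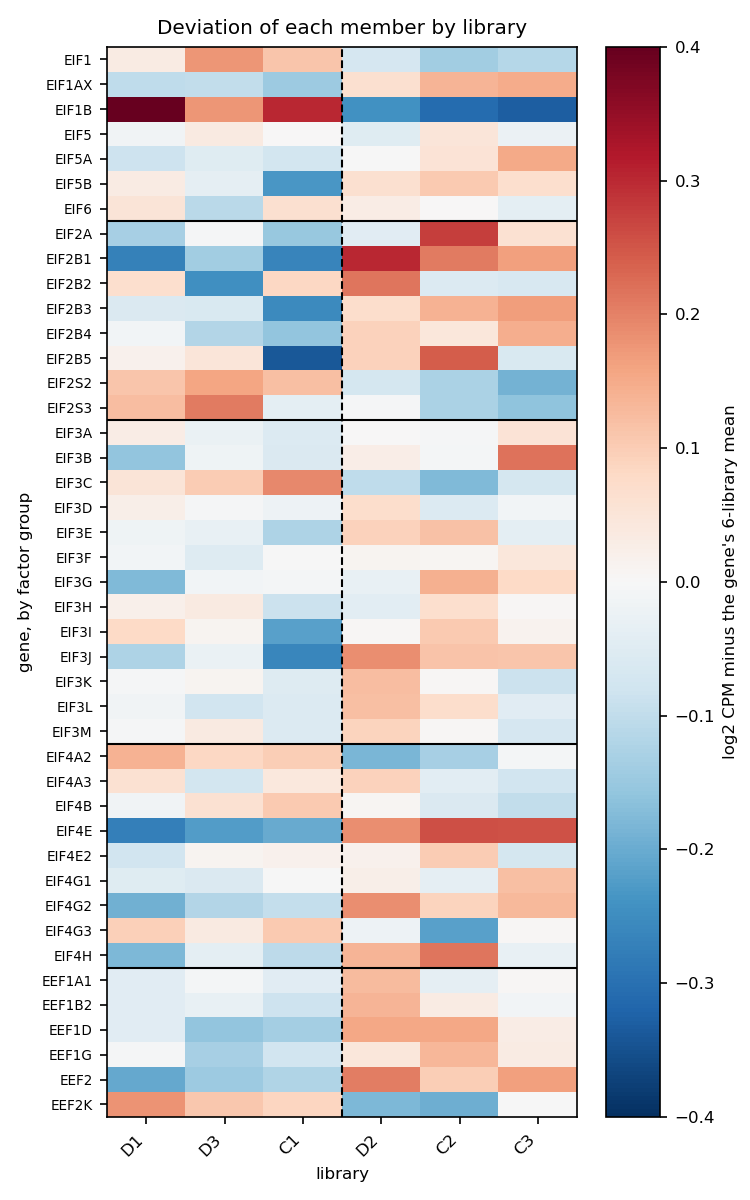
Each row is 1 of 43 tested factor genes, each column a library, and colour gives the log2 CPM minus the gene's mean over 6 libraries. D1, D3 and C1 stand left of the dashed line. EIF4E, EEF2 and EIF4G2 are lower on the left, EIF1B and EIF2S2 higher, and most EIF3 rows are pale.

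Start codon selection and subunit joining rest on EIF1, EIF1AX, EIF5 and EIF5B, and none of the 7 genes in this group passed the test by label. EIF1B, a close relative of the scanning factor EIF1, measured 81.3, 51.7 and 69.3 CPM in D1, D2 and D3 and 75.7, 49.4 and 48.7 CPM in C1, C2 and C3. The labels overlapped, and D1, D3 and C1 held the high values. By label its mean was 67.5 ± 14.9 CPM (SD, n = 3) against 58.0 ± 15.4 CPM (SD, n = 3), a log2 fold change of 0.22 ± 0.20 (SE, edgeR adjusted p 0.999). Without D2 and C1 the log2 fold change was 0.62, with an edgeR adjusted p of 6.51e-05. That fit sets the remaining libraries from opposite sides of the split against each other. Here and below, its p-values are therefore no test of the medium.

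EIF1 itself, which keeps the scanning ribosome from starting at a wrong codon, had 776, 725 and 859 CPM in D1, D2 and D3 and 820, 691 and 702 CPM in C1, C2 and C3. The same 3 libraries were highest as for EIF1B, but by a smaller margin. The ratio of EIF1 to EIF1B counts was 9.55, 12.4 and 10.8 in D1, D3 and C1 and 14.0, 14.0 and 14.4 in D2, C2 and C3. EIF1AX, the X-linked gene of eIF1A, ran the other way, at 243, 272 and 243 CPM in D1, D2 and D3 and 235, 286 and 289 CPM in C1, C2 and C3. Its lowest values were in D1, D3 and C1.

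EIF5B, the GTPase of subunit joining and the most abundant gene of the group, had 880, 898 and 839 CPM in D1, D2 and D3 and 731, 925 and 901 CPM in C1, C2 and C3. C1 was the low value, and the log2 fold change by label was 0.03 ± 0.10 (SE, edgeR adjusted p 0.999). It was -0.07 without C1. EIF5A, the hypusine-bearing factor that helps ribosomes through difficult peptide bonds, measured 254, 269 and 260 CPM in D1, D2 and D3 and 255, 279 and 299 CPM in C1, C2 and C3. Its log2 fold change was -0.09 ± 0.09 (SE, edgeR adjusted p 0.999). The last 300 bases of its transcript matched the intronless copy EIF5AL1 at 98% of positions in GENCODE v29, and that copy had 129 to 153 CPM, so the count of either is uncertain. EIF5, which makes eIF2 hydrolyse its GTP, ranged from 301 to 322 CPM. EIF6, which keeps ribosomal subunits apart, ranged from 200 to 225 CPM, and neither set libraries apart by label or otherwise.

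The EIF2 and EIF2B genes held the member nearest to a difference by label, EIF2S3. This gene encodes the GTP-binding gamma subunit of eIF2 and measured 207, 189 and 219 CPM in D1, D2 and D3 and 185, 174 and 170 CPM in C1, C2 and C3. Every deprived library stood above every complete one, the nearest being D2 at 189 and C1 at 185 CPM. The means were 205 ± 15 CPM (SD, n = 3) and 176 ± 7.69 CPM (SD, n = 3). In edgeR the log2 fold change was 0.22 ± 0.09 (SE), and its p was 0.0348 before and 0.999 after adjustment over all genes. It stayed between 0.17 and 0.27 with each library left out in turn, and was 0.31 without D2 and C1, with an edgeR adjusted p of 0.00304.

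EIF2S2, the beta subunit, was the most abundant gene of the group. It had 644, 567 and 665 CPM in D1, D2 and D3 and 648, 546 and 522 CPM in C1, C2 and C3. Here the high values were in D1, D3 and C1, and the labels overlapped. By label its log2 fold change was 0.13 ± 0.11 (SE, edgeR adjusted p 0.999). Without D2 and C1 it was 0.29, with an edgeR adjusted p of 0.00152. The ratio of EIF2S2 to EIF2S3 counts ran from 2.99 to 3.51. The alpha subunit gene EIF2S1, whose product is phosphorylated in the amino acid response, went the other way from EIF2S2. It stood at 159, 141 and 164 CPM in D1, D3 and C1 and at 191 to 192 CPM in the other libraries.

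The 5 subunits of eIF2B lay between 18.3 and 78.2 CPM in every library, below both eIF2 subunits. EIF2B1, the regulatory alpha subunit, had 36.7, 54.7 and 40.3 CPM in D1, D2 and D3 and 36.8, 51.2 and 49.8 CPM in C1, C2 and C3. D1, D3 and C1 were its lowest, and without D2 and C1 its log2 fold change was -0.39, with an edgeR adjusted p of 0.0212. EIF2B3 (38.4 to 51.5 CPM) and EIF2B4 (18.3 to 22.7 CPM) were also lowest in those libraries, with ratios of highest to lowest of 1.34 and 1.24. EIF2B2 ran from 56.7 CPM in D3 to 78.2 CPM in D2, so that its extremes shared a label. EIF2B5, the catalytic epsilon subunit, ran from 32.8 CPM in C1 to 49.4 CPM in C2. EIF2A, a separate initiation factor and not an eIF2 subunit, ranged from 78.1 to 105 CPM.

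The 13 EIF3 genes, which encode the scaffold on which the initiation complex forms, were the steadiest of the factor groups. The median ratio of a gene's highest to its lowest library was 1.16, against 1.34 for EIF2 and EIF2B, 1.25 for EIF4, 1.22 for EEF and 1.23 for EIF1, EIF5 and EIF6. Among the related lists described below, this ratio was 1.15 for termination and rescue genes and 1.16 for mitochondrial factors and poly(A)-binding genes. It was 1.22 to 1.57 for the other lists. For the 7406 tested genes with means in the range of the members it was 1.28. That range was 20.6 to 1334 CPM, whereas EIF3 means ran from 82.7 to 1210 CPM, so the 2 sets are not matched in level. EIF2B genes also had fewer counts than EIF3 genes, and counting error widens this ratio at low counts. EIF3A, the largest core subunit, measured 1234, 1210 and 1187 CPM in D1, D2 and D3 and 1166, 1206 and 1258 CPM in C1, C2 and C3. Both means were 1210 CPM, with SDs of 23.5 and 46.0 CPM (n = 3 each). The log2 fold change was 0.00 ± 0.07 (SE, edgeR adjusted p 1), and its sign changed between settings.

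EIF3G, an RNA-binding subunit, had 111, 123 and 125 CPM in D1, D2 and D3 and 125, 138 and 133 CPM in C1, C2 and C3. The labels did not overlap, although D3 and C1 round to the same value. Its log2 fold change was -0.14 ± 0.09 (SE, edgeR adjusted p 0.999). EIF3K had 141, 154 and 143 CPM against 137, 142 and 133 CPM, a log2 fold change of 0.09 ± 0.08 (SE, edgeR adjusted p 0.999). EIF3D, a subunit that can itself bind the cap of some mRNAs, had 284, 294 and 278 CPM in D1, D2 and D3 and 275, 269 and 277 CPM in C1, C2 and C3. The gap between its labelled groups was smaller than the spread within either.

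EIF3C was the EIF3 gene that set D1, D3 and C1 highest, at 781, 809 and 862 CPM, with 703, 667 and 718 CPM in D2, C2 and C3. Without D2 and C1 its log2 fold change was 0.20, with an edgeR adjusted p of 0.0359. The last 300 transcript bases of EIF3C and its copy EIF3CL are identical in GENCODE v29. EIF3CL had 149 to 192 CPM, and the ratio of EIF3C to EIF3CL counts stayed between 4.22 and 4.83, so their counts cannot be assigned with confidence. EIF3B (182 to 236 CPM), EIF3F (79.8 to 85.3 CPM) and EIF3J (115 to 157 CPM) had their lowest values in D1, D3 and C1. For EIF3F the gap was 82.6 against 83.2 CPM. EIF3J, a loosely bound subunit, had the widest range of the group, with a ratio of highest to lowest of 1.36. The other EIF3 genes, EIF3E, EIF3H, EIF3I, EIF3L and EIF3M, lay between 119 and 184 CPM and showed neither order.

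Among the 9 tested EIF4 genes, EIF4E had the highest ratio of highest to lowest library, 1.45. This cap-binding protein gene had 50, 68.9 and 51.8 CPM in D1, D2 and D3 and 52.6, 72.4 and 72.3 CPM in C1, C2 and C3. D1, D3 and C1 lay close together and below the rest. By label the means were 56.9 ± 10.5 CPM (SD, n = 3) and 65.8 ± 11.4 CPM (SD, n = 3), and the log2 fold change was -0.21 ± 0.16 (SE, edgeR adjusted p 0.999). Without D2 and C1 it was -0.51, with an edgeR adjusted p of 0.000523. EIF4EBP1, whose product holds eIF4E away from eIF4G when unphosphorylated, ran opposite, at 48.2, 58.7 and 50.9 CPM in D1, D3 and C1 and 28.3, 27.4 and 27.0 CPM in D2, C2 and C3. The count ratio of EIF4E to EIF4EBP1 was 1.04, 0.882 and 1.03 in the former libraries and 2.44, 2.64 and 2.68 in the latter. These are mRNA ratios and say nothing of protein or phosphorylation. The related gene EIF4E2, which also binds caps, did not follow EIF4E and stayed at 89.3 to 101 CPM. EIF4E3 was at 3 to 12 counts per library and failed the filter.

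The scaffold genes differed from each other. EIF4G2, an eIF4G relative without the eIF4E-binding part and the most abundant EIF4 gene, had 881, 1146 and 928 CPM in D1, D2 and D3 and 943, 1072 and 1102 CPM in C1, C2 and C3. It was lowest in D1, D3 and C1. Its log2 fold change by label was -0.08 ± 0.11 (SE, edgeR adjusted p 0.999), and without D2 and C1 it was -0.27, with an edgeR adjusted p of 0.00362. EIF4G1, the main scaffold, had 540, 568 and 536 CPM against 557, 545 and 606 CPM, a log2 fold change of -0.06 ± 0.08 (SE, edgeR adjusted p 0.999). EIF4G3 was highest in D1, D3 and C1, at 285, 273 and 287 CPM, with 229 to 267 CPM in the other libraries.

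Helicase genes had a counting problem that decides what can be said of EIF4A1, the main cap-dependent helicase. Its row held 0, 1, 2, 0, 2 and 0 counts in D1, D2, D3, C1, C2 and C3, all at or below the floor of 3 counts. The row of the readthrough transcript SENP3-EIF4A1, whose interval contains EIF4A1 in RefSeq, held 2843 to 3679 counts per library, whereas SENP3 held 0 to 3. The readthrough row stood at 437, 423 and 453 CPM in D1, D3 and C1 and at 480, 509 and 481 CPM in D2, C2 and C3. The table does not separate the genes of this locus, so the row of EIF4A1 gives no level for its mRNA. EIF4A2, its close paralog, was highest in D1, D3 and C1, at 137, 131 and 133 CPM, with 109, 113 and 123 CPM in D2, C2 and C3. EIF4A3, the helicase of the exon junction complex, ranged from 88.4 to 99.2 CPM. The helicase cofactor EIF4B ranged from 135 to 156 CPM. EIF4H, the other cofactor, was lowest in D1, D3 and C1, with a range of 89.9 to 118 CPM.

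**Figure D3:**
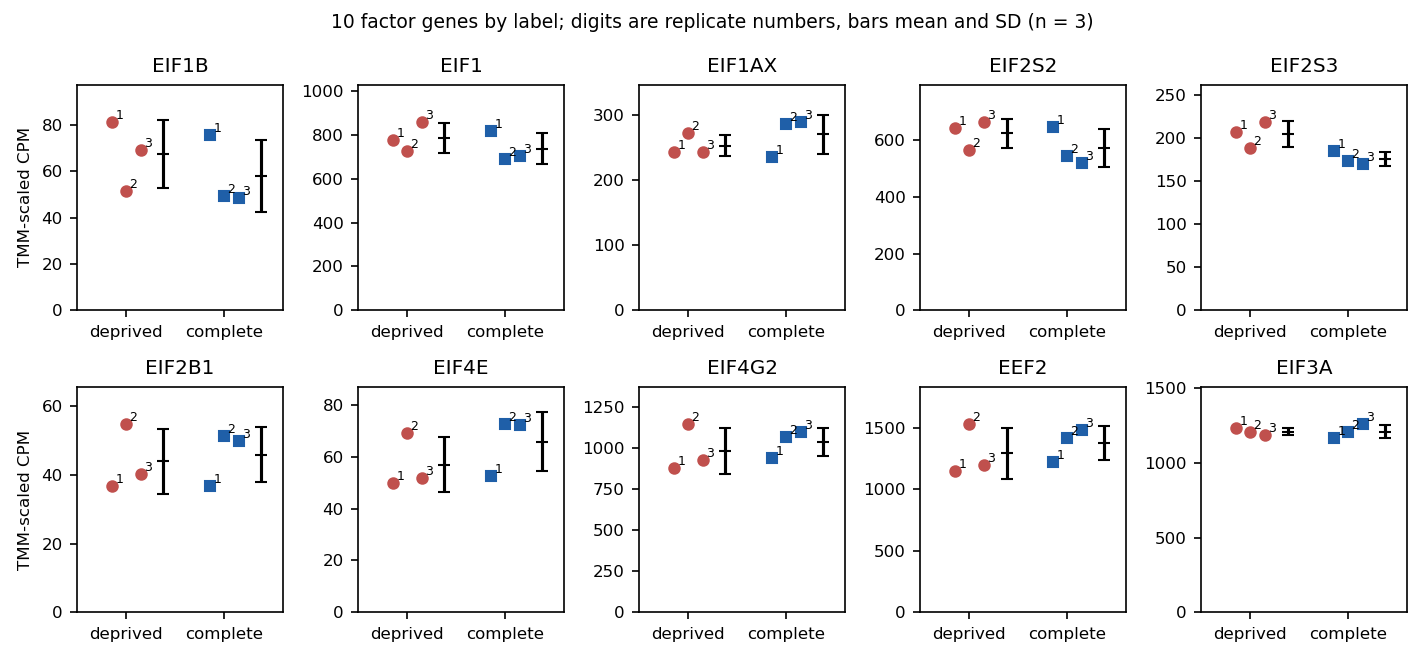
Level in TMM-scaled CPM of 10 factor genes by label, with each library marked by its replicate number and the mean with SD (n = 3) beside it. EIF1B, EIF4E and EEF2 place D2 with C2 and C3 and place C1 with D1 and D3, EIF2S3 separates by label, and EIF3A is level.

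The EEF genes had means from 32.9 CPM for EEF2K to 1334 CPM for EEF2, and 4 of 6 were lowest in D1, D3 and C1, an order found in 17.7% of all genes. EEF2, the translocase, had 1149, 1529 and 1199 CPM in D1, D2 and D3 and 1220, 1419 and 1486 CPM in C1, C2 and C3, and had the highest mean of all 43 tested members, 1334 CPM. Its label means were 1293 ± 206 CPM (SD, n = 3) and 1375 ± 138 CPM (SD, n = 3), with a log2 fold change of -0.09 ± 0.12 (SE, edgeR adjusted p 0.999). Without D2 and C1 the log2 fold change was -0.31, with an edgeR adjusted p of 0.00078. EEF2K, the kinase that phosphorylates and inhibits eEF2, was highest in the libraries where EEF2 was lowest, at 37.1, 35.3 and 34.8 CPM in D1, D3 and C1 and 28.9, 28.5 and 32.7 CPM in D2, C2 and C3. The count ratio of EEF2 to EEF2K was 30.9, 34.0 and 35.1 in the former and 53.0, 49.8 and 45.5 in the latter. EEF2K had only 203 to 259 counts per library. Without D2 and C1 its log2 fold change was 0.24 ± 0.14 (SE, edgeR adjusted p 0.246), so it was not called in that fit.

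EEF1G, a subunit of the eEF1B exchange complex, had 351, 364 and 321 CPM in D1, D2 and D3 and 334, 386 and 360 CPM in C1, C2 and C3. Its log2 fold change was -0.06 ± 0.09 (SE, edgeR adjusted p 0.999). In GENCODE v29 the exons of another gene on the same strand, AP002990.1, cover 99.9% of its exon bases, so its count depends on how overlaps were treated. EEF1D (208 to 259 CPM) and EEF1B2 (320 to 372 CPM), the exchange subunits, were lowest in D1, D3 and C1, as EEF1G was. EEF1A1, whose mRNA has many processed pseudogenes in the genome, ranged from 736 to 830 CPM, with its highest value in D2, and its count is uncertain for that reason. Its row had a lower mean than the rows of EEF2 and EIF3A, which does not rank the mRNAs.

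**Figure D4:**
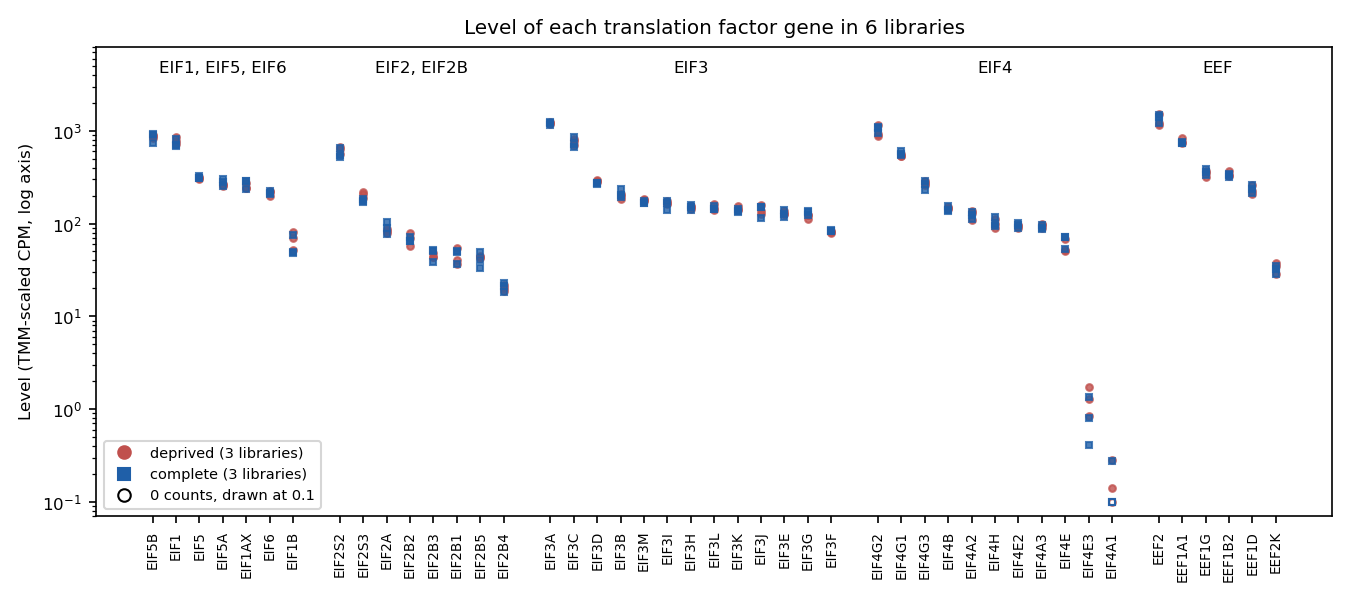
TMM-scaled CPM of all 45 factor genes in each library on a log axis, ordered by mean within each factor group, with 0 counts drawn at 0.1. Tested members have means from 20.6 CPM (EIF2B4) to 1334 CPM (EEF2), and EIF4A1 and EIF4E3 lie near the floor.

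Summed over genes, the 5 groups differed in which libraries were high, with no test made of the sums. The EEF sum was 2828, 2852 and 2857 CPM in D1, D3 and C1 and 3383, 3181 and 3215 CPM in D2, C2 and C3. Most of this EEF gap came from EEF2, at 1149, 1199 and 1220 CPM against 1529, 1419 and 1486 CPM. EEF1A1 showed neither order and EEF2K ran the other way. The EIF4 sum lacks the readthrough row. It was 2314, 2355 and 2416 CPM in D1, D3 and C1 and 2608, 2481 and 2586 CPM in D2, C2 and C3. Most of that gap came from EIF4G2 alone, at 881, 928 and 943 CPM against 1146, 1072 and 1102 CPM. EIF4A2 and EIF4G3 ran the other way, so the gap is not a trait of the group. The EIF3 sum stayed within 3661 to 3739 CPM. The EIF2 and EIF2B sum had 1143, 1174 and 1109 CPM in D1, D3 and C1 and 1088, 1062 and 1011 CPM in the other libraries, most of it from EIF2S2. All 45 genes together held a mean of 13065 CPM in deprived and 13053 CPM in complete libraries, with SDs of 415 and 314 CPM (n = 3 each). Median log2 fold changes by label were -0.02 for EIF1, EIF5 and EIF6, 0.00 for EIF2 and EIF2B, 0.02 for EIF3, -0.03 for EIF4 and 0.01 for EEF.

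**Figure D5:**
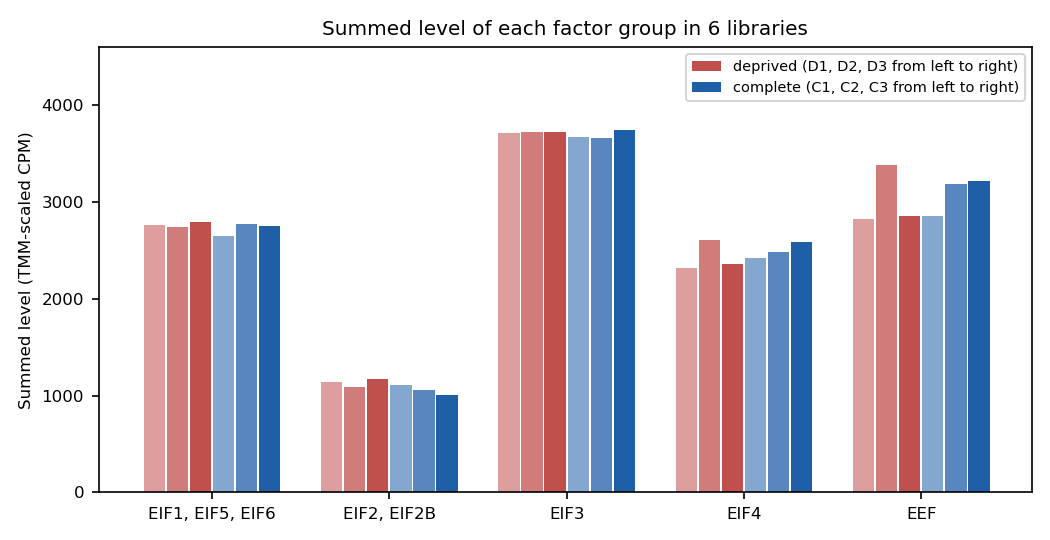
Summed TMM-scaled CPM of the genes of each factor group in 6 libraries, bars from left to right D1 to D3 and C1 to C3. The EEF bars of D2, C2 and C3 lie at 3181 CPM or more and the other EEF bars at 2857 CPM or less, while the EIF3 bars are level.

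Library orders were also counted for genes with and without the TOP run at an annotated start, and the difference between these classes was not tested. Of the 11 genes with the run, 1 (EIF4A2) was highest and 3 (EIF3F, EEF1B2 and EEF2) were lowest in D1, D3 and C1, and 7 showed neither order. Of 25 tested genes with a start but no run, 5 were highest, 12 lowest and 8 neither, where all genes gave 18.3% highest and 17.7% lowest. By label, the 11 had a median log2 fold change of 0.04 and a range of -0.13 to 0.22, and the 25 a median of -0.02 and a range of -0.21 to 0.22. LARP1, the protein that binds TOP mRNAs, stood at 477, 472 and 500 CPM in D1, D3 and C1 and at 385, 369 and 382 CPM in D2, C2 and C3.

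Without D2 and C1, 10 of 43 members, or 23.3%, passed an edgeR adjusted p of 0.05, against a background of 15.9% (2096 of 13145 genes). Both shares rest on dropping libraries by their values and are no test of the medium. Members and all genes were again not matched in level. EIF1, EIF1B, EIF2S2, EIF2S3 and EIF3C were the 5 higher in deprived libraries, where the background in that direction was 8.57%. The 5 lower were EIF1AX, EIF2B1, EIF4E, EIF4G2 and EEF2, with a background of 7.38%. The median log2 fold change of that fit was -0.05 over the 43 members and 0.0006 over all genes.

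Other genes of the pathway were read from 7 lists with 49 genes, of which 44 were tested, 0 passed the adjusted threshold by label and 1, DOHH, had an unadjusted p under 0.05, where the share over all genes was 1.89%. DOHH encodes the hydroxylase that completes hypusine on eIF5A. It measured 8.75, 10.2 and 8.65 CPM in D1, D2 and D3 and 13.6, 14.4 and 13.5 CPM in C1, C2 and C3. All deprived libraries were below all complete ones, with C1 and D2 each on the side of its label. That order was found in 3.49% of all genes tested. Of the 44 tested related genes, 3 (DOHH, ETF1 and EEF1A2) had it. The opposite order, found in 3.48% of all genes, was shown by 2 (GFM2 and MTIF3). Counts of DOHH were 61 to 104 per library. In edgeR its log2 fold change was -0.59 ± 0.16 (SE), and its p was 0.0054 before and 0.999 after adjustment over all genes. It was -0.68 without D2 and C1, with an edgeR adjusted p of 0.0307. DHPS, which carries out the preceding step of the same modification, was at 22.5 to 29.8 CPM with overlapping labels.

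Among 6 tested repressors of cap binding and related genes, 3 (EIF4EBP1, PDCD4 and LARP1) were highest in D1, D3 and C1, against 18.3% of all genes tested. PDCD4, an inhibitor of eIF4A, had 46.5, 46.9 and 50.1 CPM there and 28.9, 32.4 and 30.1 CPM in D2, C2 and C3. EIF4EBP1 had a log2 fold change by label of 0.36 ± 0.30 (SE), which ran from 0.13 without D3 to 0.73 without C1. It was 0.97 without D2 and C1, with an edgeR adjusted p of 9.71e-07. EIF4EBP2 showed neither order, at 43.5 to 55.7 CPM, and EIF4EBP3 had 0 counts. Of 4 tested poly(A)-binding genes, PAIP1 and PAIP2 were highest in those libraries and PABPC4 lowest, and PABPC1 had 2271 to 2612 CPM. PAIP2, which displaces poly(A)-binding protein, had a log2 fold change by label of 0.12 ± 0.11 (SE), which ran from 0.06 without C2 to 0.22 without C1. It was 0.30 without D2 and C1, with an edgeR adjusted p of 0.00527.

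Of 10 other initiation genes, 5 were lowest in D1, D3 and C1, among them EIF2S1 and ABCE1, against 17.7% of all genes tested. ABCE1, which splits ribosomes for reuse, had 84.7, 72.9 and 74.3 CPM there and 106, 115 and 115 CPM in D2, C2 and C3. BZW2, which competes with eIF5, had the smallest p by label of that list, with a log2 fold change of -0.13 and a standard error of 0.10. The termination factor ETF1 had a log2 fold change of -0.12 ± 0.08 (SE), and 0 of 5 tested termination and rescue genes followed either order. EEF1A2, the muscle and nerve form of eEF1A, lay at 2.27 to 4.90 CPM, with a log2 fold change of -0.65 and a standard error of 0.29. Of 9 mitochondrial translation factors, 2 were lowest in D1, D3 and C1 and 7 showed neither order. MTIF3, a mitochondrial initiation factor, had 65 to 67.7 CPM in deprived and 58.4 to 61.2 CPM in complete libraries, a log2 fold change of 0.14 ± 0.08 (SE). All 7 genes named here by smallest p had an edgeR adjusted p of 0.999.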

How the data were processed

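The deposited data are raw read counts, 25737 rows named by gene symbol, which the authors did not normalize. Per the labels' protocols, the QuantSeq 3′ kit was used on 500 ng of total RNA, and Bowtie2 is named in the submitters' processing notes without a version. How reads were counted (program, build, annotation, strand, multiple alignments) is not given in the sources used here. Columns were matched to samples by name, with 0 left unmatched. The labels do not say whether libraries of a group came from separate cultures, so the spread behind the p-values may be technical only. No libraries matched within sampling noise (chi-square per gene 2.41 to 15.5 over pairs).

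Counts were fitted over all rows with edgeR 4.0.16 in R 4.3.3 (filterByExpr at a minimum count of 10, TMM, quasi-likelihood test of the group term, Benjamini-Hochberg adjusted p under 0.05). The biological coefficient of variation was 14.1%. Standard errors are the log2 fold change divided by the square root of the F statistic, and logged CPM had 3 prior counts. Tested on simulated counts for this comparison, with 12955 genes in the step, the fit found 34.8% of 1.5-fold, 80.6% of 2-fold and 100% of 4-fold changes, and 9 of its 152 calls were false. Whether these rates hold for the real counts, in which libraries did not sort by label, was not tested. PHGDH, with a ratio of highest to lowest library of 3.59, had a log2 fold change by label of 0.62 ± 0.52 (SE, edgeR adjusted p 0.999). Alternatives were DESeq2 1.42.0, limma-voom (limma 3.58.1), other scalings and filters, summed rows of shared symbols, a replicate block and each library left out. Members and lists were chosen with earlier results of these data known. Full statistics are given for the most abundant gene and the 2 smallest p of each factor group, and the smallest p of each related list. Other named genes were chosen after their values were seen. Gene starts and names came from RefSeq on GRCh38.p14, where all 45 symbols matched, and exon overlaps from GENCODE v29. Python 3.11.15, pandas 2.3.3 and Matplotlib 3.10.9 were used.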

Additional observations from a re-analysis of the deposited data

How the results depend on the processing

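The fit without D2 and C1, and the recount of library orders under other scalings, were chosen after seeing the data. By label, 0 genes and 0 members were called under every planned setting and with each library left out, but 2096 genes and 10 members without both libraries. That fit gave medians of -0.12 for EIF2 and EIF2B, -0.03 for EIF3 and -0.10 for EEF, and log2 fold changes of 0.62 for EIF1B, 0.29 for EIF2S2, 0.31 for EIF2S3, -0.51 for EIF4E, -0.27 for EIF4G2, -0.31 for EEF2, -0.09 for EIF5B and -0.03 for EIF3A. EIF3A, near 0, was also negative with library totals alone (-0.0088), no filter (-0.0003), the stricter filter of CPM 5 in 3 libraries (-0.0009) and DESeq2 (-0.0018); the cause was not tested. With each library left out in turn, it ran from -0.03 to 0.03 and EIF5B from -0.07 to 0.09, and the medians from -0.03 to 0.03 for EIF1, EIF5 and EIF6 and from -0.03 to 0.04 for EIF3. EIF1B ran from 0.06 to 0.46, EIF2S2 from 0.07 to 0.23, EIF4E from -0.37 to -0.13, EIF4G2 from -0.20 to -0.0049 and EEF2 from -0.23 to -0.01. At an unadjusted p under 0.05 there were 3 members without D2, 4 without C1, 0 without any other library and 1 with all. Counts of 16 and 7 members by library order were the same under RLE and library totals. Same-numbered libraries deviated together at correlations of 0.384, 0.381 and -0.281, so the numbers were not taken as pairs; the replicate block gave 0 called genes and 0 called members. Depth limits genes near 0.414 to 0.480 CPM.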
